A study of Rattus norvegicus with 6 samples.

Results

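The genes described here encode the machinery of cholesterol metabolism in the rat aorta: 18 enzymes of cholesterol synthesis, 4 genes of sterol sensing, 3 genes of sterol movement and lipoprotein uptake, and 5 genes of the liver X receptor (LXR) and efflux pathway. They were taken from the deposited expression table by gene symbol, and all 30 were found among its 24005 symbols. The samples were aortas of rats with chronic kidney disease, which had been produced by a two-step removal of 5/6 of the kidney mass. Both groups were fed a diet with 1.2% phosphorus to accelerate calcification. The exosome group was given ANCR/E7-EXO, an engineered exosome preparation, at 10 mg/kg by tail vein once in 5 days. The saline group was given an equal volume of saline, and 13 weeks of treatment were recorded for both groups. Exosomes are small vesicles that cells release. Each group held 3 libraries, and no healthy rats and no rats given unmodified exosomes were analysed here. The labels name no strain, sex or age and do not tie libraries to separate rats, so the p-values below reflect the spread between libraries, which may be technical.

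Animal cells make cholesterol from acetyl-CoA. The mevalonate pathway first builds farnesyl diphosphate, which is then paired into squalene, and squalene is closed into a sterol ring and trimmed to cholesterol. When membrane sterol is scarce, SCAP carries the transcription factor SREBP-2 (gene Srebf2) out of the endoplasmic reticulum for activation, and it switches on most of these enzymes. When sterol is plentiful, INSIG proteins hold SCAP back, and oxysterols activate LXR, which raises genes for the export of cholesterol to lipoproteins. In the vessel wall this system serves the membranes of smooth muscle and endothelial cells, and it handles the cholesterol that macrophages take up.

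Values are FPKM, in which reads are divided by the length of the gene and the depth of the library, so levels can be compared between genes. Whole reads recovered from the FPKM steps gave library totals of 28063355 to 44561082 with exosomes and 29665532 to 34009970 with saline. The aortic tissue label fitted the smooth muscle markers, since Acta2 stood at 5654 to 9086 FPKM in exosome libraries and at 4584 to 8997 FPKM in saline libraries. Differences are exosome minus saline in log2(FPKM + 1), a scale on which the change of a gene with low values is understated. They were tested with limma over the 11742 genes with a mean of at least 1 FPKM, with Benjamini-Hochberg adjustment and a threshold of 0.05. Of the 30 genes 29 were tested. Hsd17b7 lay below the minimum, and Dhcr7 passed it only through its saline libraries. In bulk tissue, fewer cells of a type and less RNA per cell cannot be told apart.

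Cholesterol synthesis genes were lower in the exosome libraries. Of the 18 synthesis genes, 17 had a lower mean FPKM with exosomes, where 58.6% of all genes above 0 were lower, and 13 were lower in every exosome library than in every saline library, where 9.75% of all genes above 0 were. Of the 17 that were tested, 16 had a log2 difference below 0, as had 60.7% of all genes tested, and 12 had separate groups, as had 11.7% of all genes tested. The difference of the remaining gene was above 0, as in 39.3% of all genes. Their median log2 difference was -0.43, against -0.073 over all genes tested. Summed over the 18 genes, synthesis transcripts amounted to 195, 194 and 169 FPKM in exosome libraries 1, 2 and 3 and to 262, 275 and 262 FPKM in saline libraries 1, 2 and 3. All 3 exosome sums lay below all 3 saline sums, at 185.9 ± 14.3 FPKM with exosomes and 266 ± 7.67 FPKM with saline (mean ± SD, n = 3 each). None of the 29 tested genes passed the adjusted threshold in limma, as for nearly all of the transcriptome, of which 0.00852% was called. The smallest adjusted p was 0.219, and voom on recovered reads also called none. When libraries were weighted by their estimated quality, limma called 14 of the 29 beside 27.8% of all genes, and 5 of the 29 beside 5.26% of all genes with weights estimated gene by gene, which gave exosome 1 the most weight. At an unadjusted p under 0.05, limma found 12 of the 29 lower and 0 higher, beside 9.24% of all genes tested lower and 6.75% higher. Of the 12, 10 were synthesis genes. Dhcr7, which passed the minimum only through its saline libraries, is counted among these 10. It is also among the 12 tested synthesis genes with separate groups and the 5 genes called with gene-by-gene weights.

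**Figure D1:**
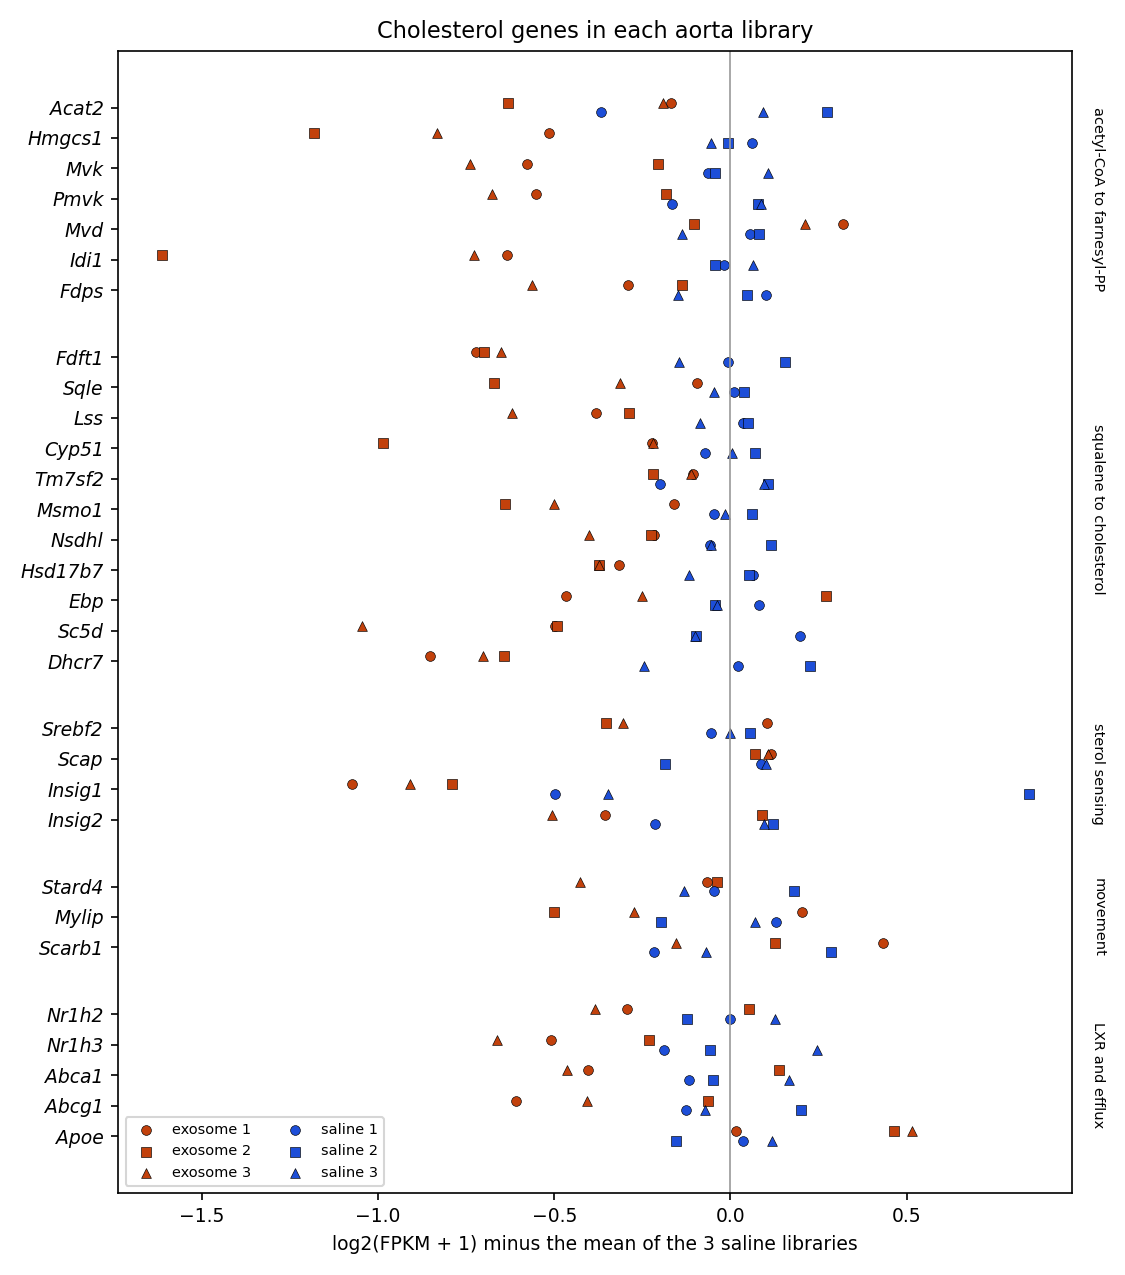
Each point is 1 library, with log2(FPKM + 1) given relative to the mean of the 3 saline libraries, for all 30 genes in pathway order. Exosome libraries are orange and drawn above the blue saline libraries, and circles, squares and triangles are libraries 1, 2 and 3. In the synthesis genes most orange points lie left of the blue ones, with overlap in Acat2, Mvd, Fdps, Tm7sf2 and Ebp, while further down the list the groups mix.

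The first steps lead from acetyl-CoA to farnesyl diphosphate. Hmgcs1, the cytosolic HMG-CoA synthase, stood at 21.7, 13.3 and 17.2 FPKM in exosome libraries 1, 2 and 3, against 32.8, 31.2 and 30.2 FPKM in saline libraries 1, 2 and 3. The groups did not overlap, and the exosome mean was 55.3% of the saline mean. The log2 difference of Hmgcs1 was -0.84 ± 0.17 (SE), with a limma adjusted p of 0.237. Idi1, the isopentenyl diphosphate isomerase, had the largest difference of the 29 tested genes. It stood at 5.72, 2.41 and 5.30 FPKM with exosomes, against 9.29, 9.11 and 9.90 FPKM with saline. The saline libraries lay close together, and exosome 2 was the lowest of all. The log2 difference of Idi1 was -0.99 ± 0.25 (SE), with a limma adjusted p of 0.255.

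The kinases of the pathway had smaller differences. Mvk, mevalonate kinase, stood at 4.03, 5.51 and 3.49 FPKM with exosomes and at 6.17, 6.28 and 7.08 FPKM with saline, a log2 difference of -0.51. Pmvk, phosphomevalonate kinase, was the most abundant synthesis transcript per kilobase. It stood at 53.3, 69.1 and 48.7 FPKM with exosomes and at 69.9, 82.9 and 83.5 FPKM with saline, a log2 difference of -0.47. The highest exosome library of Pmvk came within 1 FPKM of the lowest saline library, and neither kinase overlapped between groups. Fdps, farnesyl diphosphate synthase, averaged 33.7 ± 5.06 FPKM with exosomes and 42.4 ± 3.85 FPKM with saline (SD, n = 3 each), and its groups overlapped at the edge. Acat2, the cytosolic thiolase that supplies acetoacetyl-CoA, had a log2 difference of -0.33 with overlapping groups. Mvd, mevalonate diphosphate decarboxylase, was the only tested synthesis gene with a higher mean, at 1.36 ± 0.346 FPKM with exosomes and 1.13 ± 0.173 FPKM with saline. Its log2 difference was 0.14 ± 0.17 (SE), from 46 to 109 recovered reads per library.

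From squalene onward all 11 genes had a lower mean with exosomes. Fdft1, squalene synthase, is the first enzyme committed to sterols and had the smallest p of all 29 tested genes. It stood at 6.77, 6.89 and 7.17 FPKM in exosome libraries 1, 2 and 3, against 11.8, 13.3 and 10.6 FPKM in saline libraries 1, 2 and 3. The exosome libraries differed by less than 1 FPKM among themselves and all lay below the saline libraries. Its log2 difference was -0.69 ± 0.12 (SE), and limma gave an unadjusted p of 5.56e-04 and an adjusted p of 0.219. Sc5d, which places a double bond in the sterol ring late in the pathway, stood at 11.9, 11.9 and 7.80 FPKM with exosomes, against 19.8, 16.0 and 16.0 FPKM with saline. The groups were apart, with a log2 difference of -0.68 ± 0.18 (SE) and a limma adjusted p of 0.255.

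Dhcr7, which encodes the enzyme that reduces 7-dehydrocholesterol to cholesterol, had the lowest ratio among the synthesis genes. It stood at 0.566, 0.813 and 0.738 FPKM with exosomes, against 1.87, 2.31 and 1.38 FPKM with saline, and the exosome mean was 38.0% of the saline mean. The gene was scarce in both groups, with 52 to 183 recovered reads per library. The log2 difference was -0.73 ± 0.18 (SE), with a limma adjusted p of 0.255. Hsd17b7, a sterol ketone reductase, was scarcer still and untested, at 0.603, 0.542 and 0.542 FPKM with exosomes, against 1.09, 1.07 and 0.841 FPKM with saline. Every exosome library of Hsd17b7 lay below every saline library. Fitted without the minimum, Hsd17b7 had a log2 difference of -0.35 ± 0.09 (SE) and a limma adjusted p of 0.364.

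The middle of the sterol branch was lower by less. Lss, which closes squalene epoxide into lanosterol, stood at 4.31, 4.67 and 3.50 FPKM with exosomes and at 6.10, 6.17 and 5.51 FPKM with saline. Msmo1, a sterol methyl oxidase, stood at 16.0, 11.2 and 12.4 FPKM with exosomes and at 17.4, 18.8 and 17.8 FPKM with saline. Both had a log2 difference of -0.43 and groups that were apart. Cyp51, the lanosterol demethylase, stood at 13.2, 7.40 and 13.3 FPKM with exosomes and at 14.8, 16.4 and 15.7 FPKM with saline. Its log2 difference of -0.48 was carried mainly by exosome 2, since it was -0.22 without that library. Sqle, squalene epoxidase, had the same pattern, at 7.12, 4.45 and 5.98 FPKM with exosomes and 7.74, 7.91 and 7.40 FPKM with saline. The log2 difference of Sqle was -0.36, and it was -0.20 without exosome 2. Nsdhl, a sterol dehydrogenase, stood at 5.93, 5.90 and 5.11 FPKM with exosomes and at 6.74, 7.73 and 6.76 FPKM with saline, with groups apart and a log2 difference of -0.28. Tm7sf2, a sterol reductase, and Ebp, a sterol isomerase, each had a log2 difference of -0.15 with overlapping groups, and Ebp was highest of all in exosome 2, at 7.95 FPKM.

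**Figure D2:**
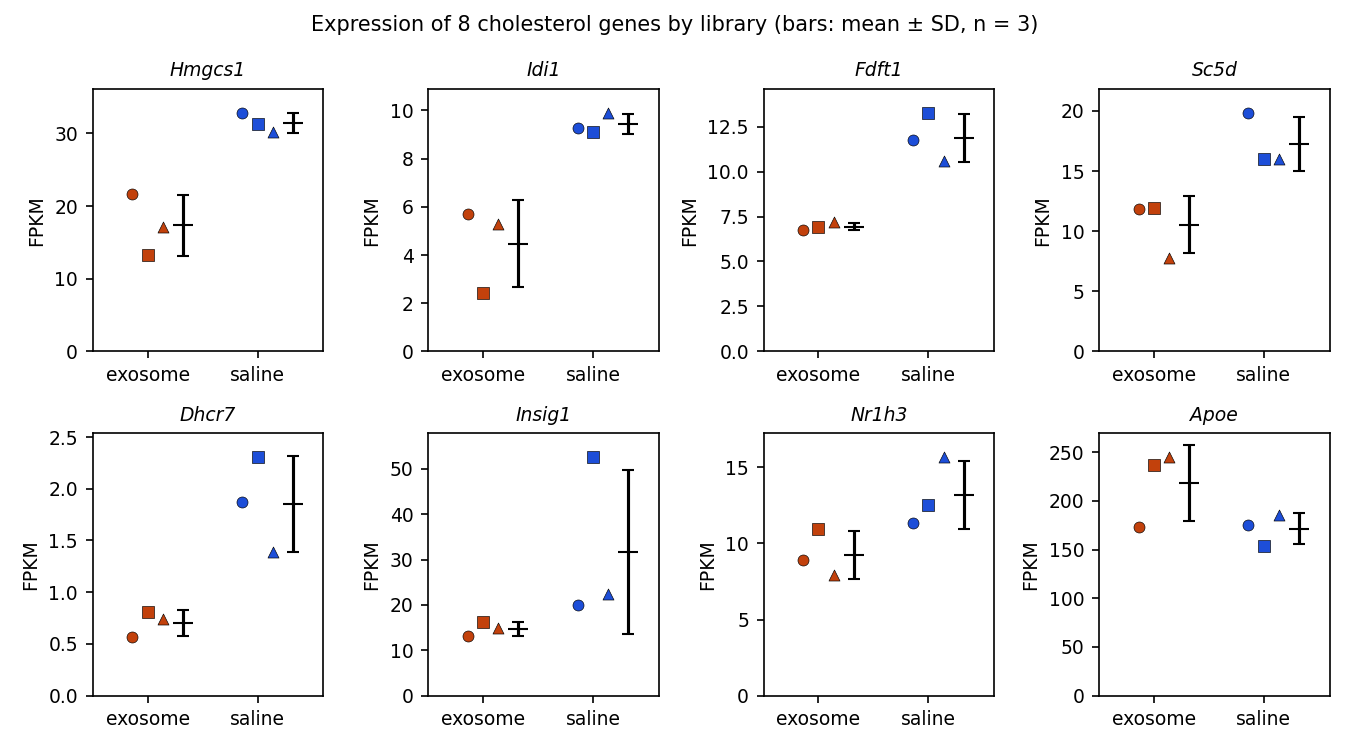
Points are FPKM in each library, with circles, squares and triangles for libraries 1, 2 and 3, exosome libraries in orange and saline libraries in blue, and bars give mean ± SD (n = 3). In Hmgcs1, Idi1, Fdft1, Sc5d, Dhcr7, Insig1 and Nr1h3 the groups do not overlap, in Insig1 saline 2 stands at 52.6 FPKM far above the rest, and in Apoe the groups overlap.

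The promoter windows of 5 synthesis genes with separate groups are printed to show where CCAAT boxes lie in them. They run from 250 bases before to 50 bases after the annotated start, 5′ to 3′ on the gene's strand, and come from RefSeq on the GRCr8 assembly. Hmgcs1 lies at chr2:53382054-53382353 on the plus strand and Dhcr7 at chr1:208444184-208444483 on the plus strand. Mvk lies at chr12:47819454-47819753, Idi1 at chr17:66547475-66547774 and Sc5d at chr8:51538228-51538527, all on the minus strand. Capitals mark the CCAAT box (CCAAT, or ATTGG on the other strand), the binding motif of NF-Y, a factor known to work beside SREBP at sterol genes.
Hmgcs1: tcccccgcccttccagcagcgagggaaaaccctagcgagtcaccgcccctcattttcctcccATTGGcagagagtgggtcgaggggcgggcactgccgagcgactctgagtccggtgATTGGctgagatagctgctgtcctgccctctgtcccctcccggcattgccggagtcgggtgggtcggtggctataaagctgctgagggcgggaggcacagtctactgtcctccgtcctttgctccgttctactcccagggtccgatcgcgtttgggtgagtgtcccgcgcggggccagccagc
Mvk: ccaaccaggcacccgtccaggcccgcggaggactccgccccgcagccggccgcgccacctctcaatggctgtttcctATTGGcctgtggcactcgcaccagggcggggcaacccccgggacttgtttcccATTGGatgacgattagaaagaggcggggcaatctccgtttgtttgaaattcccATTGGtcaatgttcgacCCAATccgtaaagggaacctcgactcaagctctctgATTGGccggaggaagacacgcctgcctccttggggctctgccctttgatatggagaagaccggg
Idi1: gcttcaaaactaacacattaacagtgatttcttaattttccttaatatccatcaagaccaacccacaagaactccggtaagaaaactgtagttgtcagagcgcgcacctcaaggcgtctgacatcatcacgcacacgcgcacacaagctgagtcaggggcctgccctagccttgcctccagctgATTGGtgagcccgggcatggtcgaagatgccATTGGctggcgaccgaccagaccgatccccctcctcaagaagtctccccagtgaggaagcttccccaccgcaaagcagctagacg
Sc5d: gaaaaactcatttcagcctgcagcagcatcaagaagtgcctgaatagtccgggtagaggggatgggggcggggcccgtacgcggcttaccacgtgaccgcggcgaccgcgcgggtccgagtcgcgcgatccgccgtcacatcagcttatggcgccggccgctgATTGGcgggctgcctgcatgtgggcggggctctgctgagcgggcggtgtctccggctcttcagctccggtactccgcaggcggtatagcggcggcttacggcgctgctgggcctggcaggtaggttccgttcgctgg
Dhcr7: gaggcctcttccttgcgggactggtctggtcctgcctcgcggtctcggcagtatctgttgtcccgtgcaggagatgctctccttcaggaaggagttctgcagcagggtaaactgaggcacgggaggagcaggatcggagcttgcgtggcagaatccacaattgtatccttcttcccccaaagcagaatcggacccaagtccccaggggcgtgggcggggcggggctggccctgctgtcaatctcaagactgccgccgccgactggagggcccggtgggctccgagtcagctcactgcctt
The CCAAT boxes begin 188 and 133 bases before the start in Hmgcs1, 66 and 35 bases before it in Idi1 and 87 bases before it in Sc5d. Mvk holds 5, between 173 and 14 bases before the start, and Dhcr7 holds 0 in this window. None of the marked boxes overlapped a GC box.

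RefSeq windows were found for 15 of the 18 synthesis genes. On either strand, CCAAT was present in 12 of these 15, against 37.5% of all 33469 promoter windows, and 2 or more copies were present in 10 of the 15, against 11.2% of all windows. Among synthesis genes with overlapping groups, Mvd, Fdps, Tm7sf2 and Ebp each held 2 copies and Acat2 held 0. Among those with separate groups, Lss and Sc5d held 1, Cyp51 and Dhcr7 held 0, and the others with windows held 2 or more. Whether the box goes with the difference in expression was not tested. The GC box GGGCGG, a motif of the Sp1 family, was present in 13 of the 15, against 33.1% of all windows. The sterol regulatory element TCACNCCAC was found in 0 of the 15, against 1.12% of all windows, and known sterol elements often depart from these letters. Among the 4 LXR and efflux genes with windows, CCAAT was present in 1, and in the 4 sterol sensing genes it was present in 3.

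Sterol sensing genes differed among themselves. Insig1, which encodes an ER anchor of SCAP and is itself switched on by SREBP, stood at 13.1, 16.2 and 14.9 FPKM in exosome libraries 1, 2 and 3, against 20.1, 52.6 and 22.4 FPKM in saline libraries 1, 2 and 3. The groups were apart, and saline 2 stood far above the other saline libraries. The log2 difference of Insig1 was -0.92 ± 0.33 (SE), with a limma adjusted p of 0.285, and it was -0.50 without saline 2. Insig2, the second ER anchor, stood at 10.6, 14.8 and 9.50 FPKM with exosomes and at 11.8, 15.2 and 14.9 FPKM with saline. These groups overlapped, with a log2 difference of -0.26 ± 0.18 (SE). Srebf2, the transcription factor gene, averaged 15.6 ± 3.01 FPKM with exosomes and 17.6 ± 0.717 FPKM with saline (SD, n = 3 each), a log2 difference of -0.18 with exosome 1 the highest of all libraries. Scap stood at 11.4 ± 0.207 FPKM with exosomes and 10.6 ± 1.25 FPKM with saline. The 95% interval of its log2 difference ran from -0.18 to 0.38, while that of Srebf2 ran from -0.52 to 0.15, and both intervals hold 0.

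Among genes of sterol movement and uptake none had separate groups. Stard4, a carrier of cholesterol between membranes, stood at 2.12, 2.18 and 1.43 FPKM with exosomes and at 2.16, 2.70 and 1.98 FPKM with saline, a log2 difference of -0.18 ± 0.17 (SE). Mylip, a ubiquitin ligase induced by LXR that degrades lipoprotein receptors, stood at 38.8, 23.5 and 27.7 FPKM with exosomes and at 36.9, 29.2 and 35.3 FPKM with saline, a log2 difference of -0.19 ± 0.19 (SE). In both genes the differences were about as large as their standard errors. Scarb1, the high-density lipoprotein receptor SR-B1, averaged 20.3 ± 4.34 FPKM with exosomes and 18.3 ± 3.55 FPKM with saline, a log2 difference of 0.14 ± 0.19 (SE).

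The LXR and efflux genes had a median log2 difference of -0.24 over 5 genes, and only Nr1h3 among them had separate groups. Nr1h3, which encodes LXR alpha, stood at 8.89, 11.0 and 7.90 FPKM with exosomes, against 11.3, 12.5 and 15.7 FPKM with saline. The highest exosome library lay just below the lowest saline library. Its log2 difference was -0.47 ± 0.16 (SE), with a limma adjusted p of 0.285. Nr1h2, which encodes LXR beta, was the more abundant receptor transcript per kilobase in every library, at 45.8 ± 7.71 FPKM with exosomes and 52.7 ± 4.64 FPKM with saline, and its groups overlapped.

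The transporters Abca1 and Abcg1 load cholesterol onto lipoproteins and are targets of LXR. In both genes exosome 1 and 3 lay below every saline library, while exosome 2 lay within the range of the saline libraries. Abcg1 stood at 3.46, 5.50 and 4.13 FPKM with exosomes and at 5.23, 6.81 and 5.47 FPKM with saline, a log2 difference of -0.36 ± 0.18 (SE). Abca1 averaged 6.56 ± 1.83 FPKM with exosomes and 7.81 ± 0.925 FPKM with saline, a log2 difference of -0.24 ± 0.19 (SE). Apoe, the lipoprotein ligand that macrophages and other cells secrete, was the most abundant of the 30 transcripts per kilobase. It stood at 173.0, 236 and 245 FPKM with exosomes, against 175, 154 and 186 FPKM with saline. Exosome 2 and 3 were above every saline library and exosome 1 was not, and the log2 difference was 0.33 ± 0.16 (SE), with a limma adjusted p of 0.343. Of 14 tested macrophage markers 12 were higher with exosomes and 8 were apart, where 9.4% of all genes were apart in that direction, and their summed level was 189 to 233 FPKM in exosome libraries against 138 to 162 FPKM in saline libraries. None of the 14 was at 0 in any library, and their part in the values of Apoe and of the LXR genes was not tested.

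**Figure D3:**
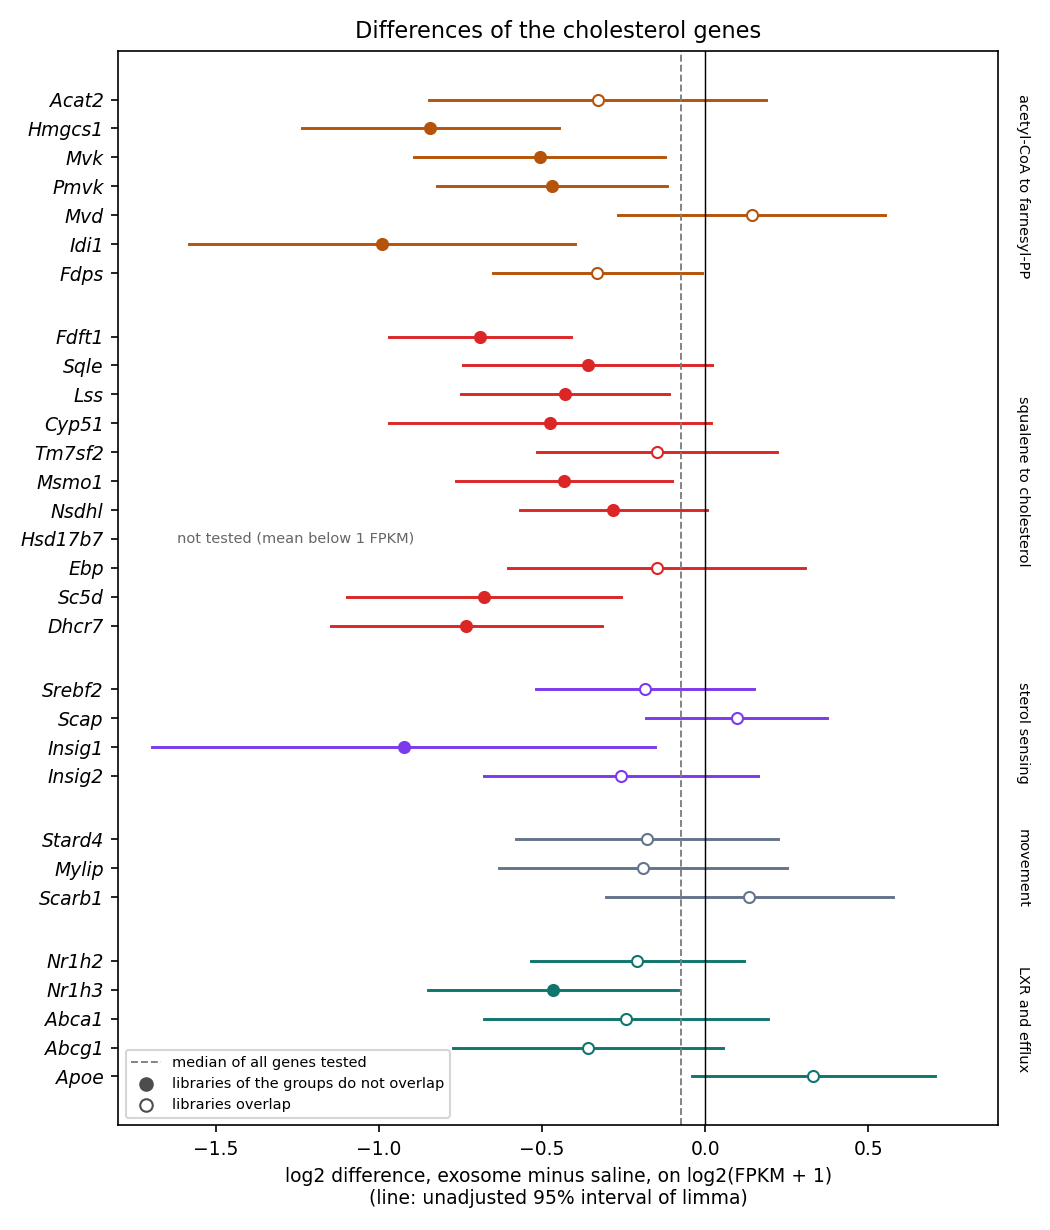
Points are limma log2 differences, exosome minus saline, on log2(FPKM + 1), and lines are their unadjusted 95% intervals. Filled points mark genes whose libraries do not overlap between groups, and the dashed line marks the median of all genes tested, -0.073. Idi1 at -0.99 and Insig1 at -0.92 lie farthest left, and Apoe at 0.33 lies farthest right.

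Within groups the synthesis genes did not move as a block. Exosome 2 was the lowest of the exosome libraries for 8 of the 18 synthesis genes, among them Hmgcs1, Idi1, Sqle, Cyp51 and Msmo1, and the highest for 7, among them Mvk, Pmvk, Fdps, Lss and Dhcr7. Taking each gene's mean deviation from its average over the 6 libraries, the 17 tested synthesis genes scored -0.13, -0.28 and -0.26 log2 units in exosome libraries 1, 2 and 3, against 0.20, 0.29 and 0.19 in saline libraries 1, 2 and 3. The spread of a single gene was wider with exosomes, with a median coefficient of variation of 20.7% against 8.55% with saline. In the exosome group 13 of the 18 synthesis genes were more variable. Over all 30 genes the medians were 20.3% and 11.6%, and 23 were more variable with exosomes. The spread was not measured over the whole table, so it is not shown to be particular to these genes. The 5 LXR and efflux genes scored -0.26, 0.17 and -0.19 in exosome libraries 1, 2 and 3 and 0.015, 0.057 and 0.21 in saline libraries 1, 2 and 3, so that exosome 2 stood among the saline libraries for efflux while it had the lowest score for synthesis.

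Other genes of the pathway were counted in lists drawn up for this comparison. None of their members passed the adjusted threshold in limma. Of 12 tested genes of SREBP-responsive fatty acid synthesis, 12 were lower, with a median log2 difference of -0.59, but the median was -0.15 without saline 2. Scd2, a stearoyl-CoA desaturase, stood at 68.9, 62.8 and 32.8 FPKM with exosomes, against 109.7, 159.6 and 124 FPKM with saline, a log2 difference of -1.29 ± 0.28 (SE) that was -1.14 without saline 2. Acsl3, an acyl-CoA synthetase, had a log2 difference of -0.37, and its groups were apart. Srebf1, which encodes SREBP-1 and is a target of LXR as well as of insulin signalling, stood at 11.7, 13.6 and 9.94 FPKM with exosomes, against 20.5, 49.7 and 28.5 FPKM with saline. The groups of Srebf1, which was counted among the SREBP processing genes and the LXR targets, were apart, and its log2 difference was -1.33 ± 0.29 (SE) with all libraries and -0.99 without saline 2.

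Genes of SREBP processing and sterol-regulated degradation were divided, with 6 of 14 lower, 8 higher and a median log2 difference of 0.11, which was 0.063 without saline 2. Beside Srebf1, the smallest p in that list was that of Ube2g2, a ubiquitin-conjugating enzyme of the ER, at 24.2, 24.6 and 24.1 FPKM with exosomes and 19.1, 14.0 and 17.2 FPKM with saline. Its log2 difference was 0.52 ± 0.13 (SE). Of 7 tested genes of acetyl-CoA supply, late sterol and oxysterol steps 6 were lower, with a median of -0.26, while 5 were lower without saline 2, with a median of -0.14. The median is the value of Cyp7b1, an oxysterol hydroxylase, which passed the minimum only through its saline libraries, at 0.920, 0.814 and 0.957 FPKM with exosomes and 1.07, 1.27 and 1.50 FPKM with saline. Of the untested members, Ch25h averaged 0.953 FPKM with exosomes and 0.621 FPKM with saline, and Cyp39a1 averaged 0.851 FPKM with exosomes and 0.586 FPKM with saline. The smallest p-values in the list were those of Cyp27a1, the sterol 27-hydroxylase, at -0.63 with overlapping groups, and Acss2, an acetyl-CoA synthetase, at -0.40. The isoprenoid branch, which uses farnesyl diphosphate for other products, had 7 of 11 genes lower and a median of -0.15, with Dhdds at -0.37 and Ggps1 at -0.34.

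Intracellular transport and esterification genes had 9 of 17 lower and a median log2 difference of -0.036, which was 0.020 after rescaling to the median of ratios, -0.18 without exosome 2 and -0.077 without saline 2. Gramd1b, an ER protein that draws cholesterol from the plasma membrane, averaged 1.04 ± 0.103 FPKM with exosomes and 2.23 ± 0.547 FPKM with saline, a log2 difference of -0.65 ± 0.18 (SE). Osbpl1a, an oxysterol-binding protein homolog, had a log2 difference of -0.36 with groups apart. Lipoprotein and scavenger receptors had 6 of 12 lower and a median of -0.031, which was 0.037 after that rescaling, -0.14 without exosome 2 and 0.076 without saline 2. In that list the endothelial and macrophage receptor Stab1, at 0.43, and the capillary lipase anchor Gpihbp1, at 0.74, were higher with groups apart. Of 12 tested LXR partners and targets 8 were lower, with a median of -0.081 that was -0.21 without exosome 2 (6 were lower after that rescaling), and Pltp, a phospholipid transfer protein, had a log2 difference of 0.28 with groups apart.

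**Figure D4:**
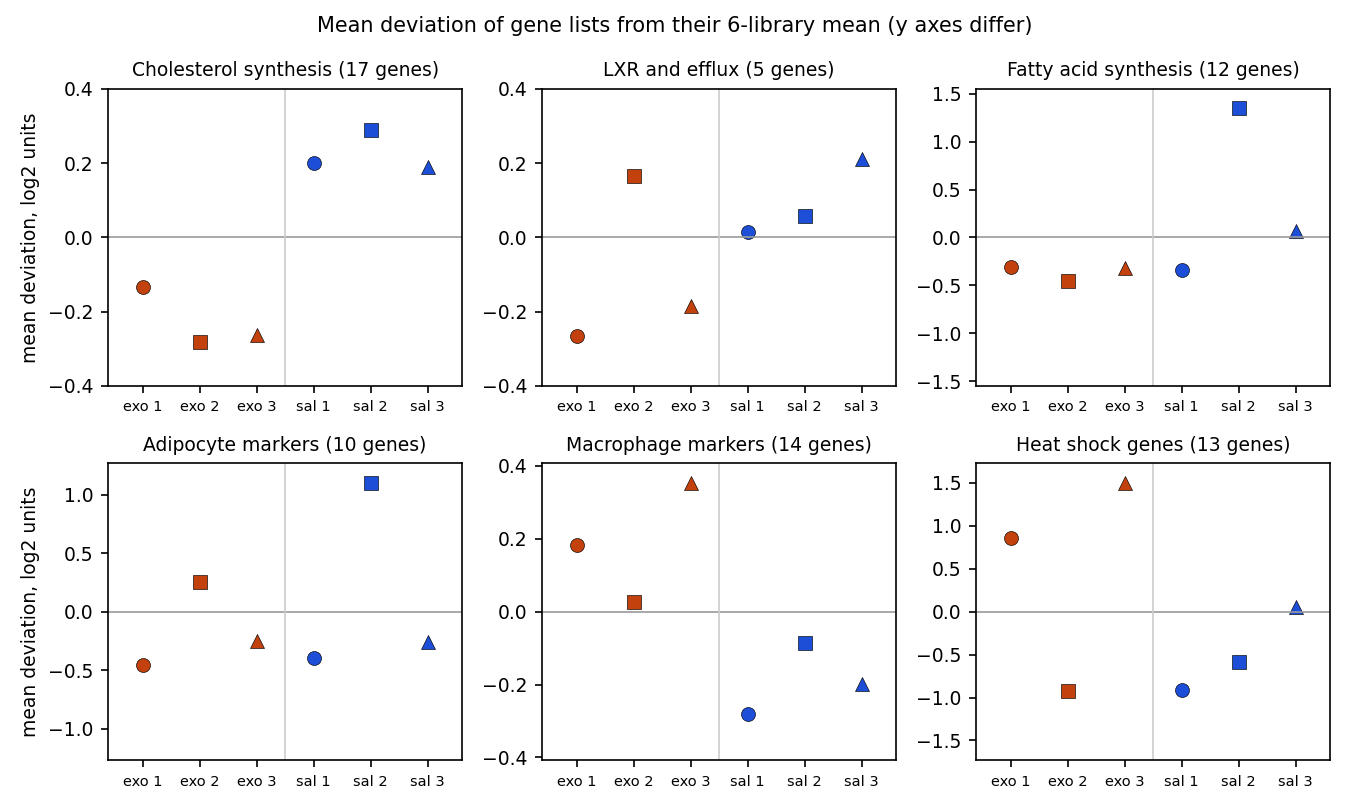
Each point is 1 library, exosome in orange on the left and saline in blue on the right, and the y axis is the mean deviation of the list's tested genes from their average over the 6 libraries, in log2 units (axes differ between panels). The synthesis score separates the groups, from -0.28 to -0.13 with exosomes and from 0.19 to 0.29 with saline, while the fatty acid and adipocyte scores are highest in saline 2 and the heat shock score is high in exosome 1 and 3.

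Single libraries stood apart on other gene lists, and the synthesis values are given with and without them. The 10 adipocyte markers summed to 501, 908 and 567 FPKM in exosome libraries 1, 2 and 3 and to 448, 1342 and 501 FPKM in saline libraries 1, 2 and 3. Saline 2 had the highest sum and the highest value of every marker but Cfd and Pck1, which were highest in exosome 2. Of the 10 markers 8 were lower with exosomes, and none was at 0 in any library. The 8 include Ucp1, the uncoupling protein of brown fat, which passed the minimum only through saline, at 0.364, 0.0594 and 0.973 FPKM with exosomes and 1.07, 15.0 and 0.515 FPKM with saline. Without saline 2 the adipocyte median was 0.18 and the median of the synthesis genes was -0.40. Of the 17 tested synthesis genes 12, Dhcr7 included, were then lower with groups apart, where 17.1% of all genes tested were apart in that direction. Heat shock genes scored 0.86 and 1.50 log2 units in exosome 1 and 3 but -0.93 in exosome 2, against -0.91, -0.59 and 0.058 in the saline libraries. Among them Hspa1b was read through a synonym from the entry Hspa2, which may not be the same gene, with a log2 difference of -0.27. That entry ran from 14.3 to 21.9 FPKM over all libraries, where Hspa1a ran from 6.27 to 427 FPKM. It is kept in the heat shock score. With exosome 1 and 3 both left out, exosome 2 stood alone against saline, so these values rest on 1 exosome library. There 16 of the 17 synthesis genes were lower, with a median of -0.49. Of all genes tested, 54.8% were then higher, with a median of 0.027, and the LXR and efflux median was 0.052. Markers of Schwann cells, which make much cholesterol for myelin, summed to 102 to 129 FPKM in exosome libraries and 115 to 125 FPKM in saline libraries, with 3 of 5 tested markers lower (1 of 5 after the rescaling). Mag, a myelin protein, was at 0 in exosome 1, saline 2 and saline 3. Endothelial markers were higher in 7 of 8 cases and 5 were apart, where 9.4% of all genes were apart in that direction, with sums of 150.1 to 222 FPKM with exosomes against 93.3 to 137 FPKM with saline. The part of the adipocyte, heat shock, Schwann cell, endothelial and macrophage genes in the synthesis values was not tested. Smooth muscle markers had 3 of 7 lower and a median log2 difference of 0.069. Only Myocd among them had separate groups, and it was higher with exosomes, with a log2 difference of 0.94. Of the fibroblast markers 5 of 6 were lower, with a median of -0.039, but 3 of 6 were after the rescaling.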

How the data were processed

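RNA of rat aorta was measured in 6 libraries, made with the SMARTER mRNA-seq kit per the labels' protocols and grouped by the treatment in the labels. The authors deposited FPKM values in 1 table. The submitters' processing notes name DESeq2 1.28.1 without its role. Aligner, counting, strand setting and genome build: not given in the sources used here. Reads of overlapping genes and pseudogenes could not be separated. Whole reads were recovered from the FPKM steps for 18430 genes, 100.0% of those above 0, within 0.02 reads. No library pair was a duplicate (chi-square per gene of 46.8 to 181.9 over the pairs).

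limma 3.58.1 in R 4.3.3 was run on log2(FPKM + 1) with moderation and an intensity trend, two-sided, without covariates. FPKM is relative to the library total. SDs are of FPKM, and SEs are limma's. The gene lists, the members and the rule for genes given by library (the smallest p of each role, and groups that did not overlap) were chosen with earlier results of these data known. Alternatives were other pseudocounts, filters, scalings, moderation, library weights, a replicate block, left-out libraries and voom on recovered reads. Gene-by-gene library weights and the counts of separate groups without single libraries were chosen after seeing the data. Simulated data were used to test the fit. Tables and plots were made in Python 3.11.15 with matplotlib 3.10.9, pandas 2.3.3 and numpy 2.4.6.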

Additional observations from a re-analysis of the deposited data

How the results depend on the processing

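Of the 29 tested genes, 21 kept the sign of their log2 difference under every alternative in which they were tested (20, or 19 for Acat2, Tm7sf2, Dhcr7 and Stard4, which are not tested at a minimum of 5 FPKM), among them 15 of the 17 synthesis genes, and the median of the synthesis genes stayed negative in each. That median was -0.51 with a pseudocount of 0.01 and -0.33 with gene-by-gene library weights, and it ranged from -0.51 to -0.39 when single libraries were left out. Rescaling to the median of ratios moved the median of all genes to -0.01 and that of the synthesis genes to -0.37. The LXR and efflux median was -0.42 with library weights, from -0.43 to -0.13 without single libraries, and 0.052 with exosome 1 and 3 left out. Synthesis genes with separate groups numbered 12 to 14 without single libraries, where the share over all genes was 14% to 33.5%, and 14 with exosome 1 and 3 left out, where it was 21.8%, against 12 and 11.7% with all libraries. Dhcr7, which passed the minimum only through its saline libraries, is in each of these counts.

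Genes called over the whole table numbered 1 in the fit as reported, 0 to 9 without single libraries (9 without saline 1, 4 without exosome 2, 2 without exosome 3, 1 without saline 2, 0 without exosome 1 or saline 3), 2 under quantile normalization, 0 with exosome 1 and 3 left out and 1877 at an unadjusted p under 0.05. Library weights called 3268 genes, 27.8% of all, and 14 of the 29. The default estimate stopped before its tolerance and gave exosome 1 a weight of 9.20 and exosome 2 one of 0.305. With gene-by-gene weights, 618 genes and 5 of the 29 were called, namely Fdft1, Pmvk, Dhcr7, Mvk and Hmgcs1, all lower. Of these 5, Dhcr7 passed the minimum only through its saline libraries. At an unadjusted p under 0.05, 12 of the 29 passed. No other alternative called any of the 29.

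Signs turned in Mvd (-0.10), Ebp (0.27), Insig2 (0.089), Nr1h2 (0.052) and Abca1 (0.14) with exosome 1 and 3 left out, in Ebp (0.010) and Scarb1 (-0.013) without exosome 1, in Srebf2 (0.055) and Mylip (0.18) with library weights, and in Mylip (0.063) with gene-by-gene weights. Without single libraries Ebp ranged from -0.36 to 0.010 and Scarb1 from -0.013 to 0.28. The cause was not tested. A replicate block called 1 gene and 0 of the 29, with a synthesis median of -0.43. Libraries with the same number deviated together weakly or in opposite ways (correlations of 0.068, 0.096 and -0.17), so the numbers were not taken as pairs. Depth limits the scarce genes most, since Mvd rested on 46 to 109 and Tm7sf2 on 49 to 89 recovered reads per library.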
